A study of Rattus norvegicus with 24 samples.

Results

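Acupuncture at Neiguan before myocardial injury was set against the same injury without acupuncture, on 8 of the 24 single-colour arrays of a series on rat heart muscle. The 8 arrays were chosen by the group in their titles, 4 titled Neiguan (NG) and 4 titled IRI (MX), and every named gene that passed a detection filter was tested. IRI stands for myocardial ischaemia-reperfusion injury, here by ligature of the left anterior descending artery of the heart. The IRI rats had no acupuncture, and the Neiguan rats had 7 days of it at that point before the same operation. Both groups held 2 males and 2 females. The other 16 arrays, which shared the estimate of spread, were 4 of a sham group (DZ) and 4 each of rats pretreated for 7 days at Jiaji (JJ), Yanglingquan (YL) or Quchi (QC) and then injured. The sources used here do not state the strain, the age, the times of ischaemia and reperfusion, the sampled part of the heart, or whether the IRI rats were handled like the needled rats.

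Neiguan lies on the inner forearm over the median nerve and is the point most often needled for complaints of the heart. Reperfused heart muscle is known for an early inflammatory reaction, in which the transcription factor NF-kB switches on cytokine, nitric oxide synthase and feedback genes, and for changes in sympathetic nerve activity. Heart cells also run a circadian clock, in which BMAL1 pairs with CLOCK or NPAS2 to switch on the Per genes, while REV-ERB proteins repress Bmal1.

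Levels are given as log2 of the processed signal relative to the 75th percentile of each array, so that 0 is the level of that percentile, and differences are Neiguan minus IRI with their standard error (SE). The tissue label was borne out by the contractile genes of heart muscle, whose mean level over 20 genes lay between 5.75 and 5.92 on the IRI arrays and between 5.83 and 5.97 on the Neiguan arrays. Every array of the 2 groups had its closest levels of Eif2s3, an X-linked gene, with its own labelled sex, with females at 2.78 to 3.17 and males at 2.13 to 2.30. Probes well above background made up 81.3%, 83.8%, 76.1% and 79.0% of all probes on Neiguan replicates 1 to 4 and 83.9%, 85.1%, 88.7% and 81.1% on the IRI replicates. The mean was lower in Neiguan by 4.69 percentage points, which did not pass an exact permutation test over 70 assignments (two-sided p = 0.114). Per the time stamps in the scanner files, sham and IRI arrays were scanned on 1 day, the Neiguan arrays 2 days later together with the other acupoint arrays except Quchi replicate 1, and each group but Quchi in a scan of its own. Scan and group can therefore not be told apart in any comparison of Neiguan with IRI.

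Heart muscle of Neiguan rats differed from that of IRI rats in 727 genes, most of them higher. These were the genes called of 12894 tested (5.64%), meaning an adjusted p below 0.05 in limma. Of these, 569 were higher (4.41% of all tested) and 158 lower (1.23%), and 2539 genes had an unadjusted p below 0.05. Among called genes, 233 were higher by at least 1 on the log2 scale, a doubling, and 36 were lower by as much. The 4 Neiguan arrays did not overlap the 4 IRI arrays in 1973 genes (15.3%), among them 533 of the 569 called higher and 143 of the 158 called lower. Over all genes the median difference was -0.05. The split into higher and lower depended on the scaling: quantile normalization gave 562 and 318, median scaling 494 and 317, the authors' processed values 563 and 306, and normexp background correction 414 and 843. The count of calls was 456 without Neiguan replicate 1, 476 without Neiguan replicate 4 and 461 without IRI replicate 2.

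**Figure D1:**
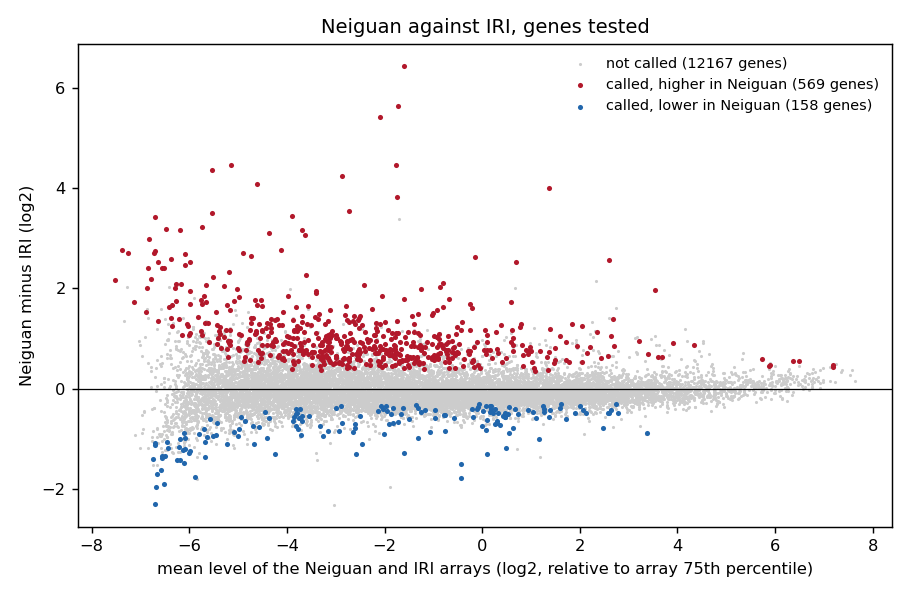
Difference between Neiguan and IRI (log2, vertical axis) against the mean level on the 8 arrays (log2 relative to the array's 75th percentile, horizontal axis), 1 point per gene tested; red and blue points are the 569 genes called higher and the 158 called lower. Of the called genes, 233 lie at 1 or above and 36 at -1 or below.

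The largest increases were in genes that mostly stood low in IRI and at middle levels in Neiguan. Krt80, a keratin of epithelial cells, stood at 1.65, 1.09, 1.94 and 1.78 on Neiguan replicates 1 to 4 and at -4.95, -4.37, -4.58 and -5.38 on the IRI replicates. It was higher in Neiguan by 6.44 ± 0.26 (adjusted p = 1.52e-12), the largest difference of any gene well above background on all 8 arrays. Mcc, a gene named for its mutation in colorectal cancers, lay between 0.56 and 1.49 in Neiguan (1.097, 0.56, 1.1997 and 1.49) and at -4.83, -4.26, -4.51 and -4.61 in IRI, a difference of 5.64 ± 0.27 (adjusted p = 1.88e-11). Evc2, whose protein sits at the base of cilia and serves hedgehog signalling, stood at 0.50, -0.04, 0.99 and 0.95 against -4.997, -4.49, -4.70 and -5.04, higher by 5.41 ± 0.28. The 2 groups were thus far apart in all of these genes, with gaps many times the spread within a group. Pinx1, an inhibitor of telomerase, was the brightest of them, at 3.37, 2.96, 3.42 and 3.71 in Neiguan and -0.51, -0.32, -0.93 and -0.79 in IRI (4.00 ± 0.22, adjusted p = 7.77e-11).

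The next in size were Defb43, a defensin gene, at 0.45, -0.09, 0.71 and 0.79 against -4.17, -3.86, -3.87 and -4.09 (4.46 ± 0.23), and Opalin, a membrane protein gene of oligodendrocytes, at -0.66, -1.30, -0.69 and -0.33 against -5.04, -4.92, -4.43 and -5.52 (4.23 ± 0.26). Dact2, a modulator of Wnt and Nodal signalling, stood at 0.20, -0.33, 0.23 and 0.55 against -3.60, -3.79, -3.49 and -3.73 (3.82 ± 0.20). Svs3a, a seminal vesicle secretory protein gene, stood at -1.56, -1.01, -0.60 and -0.62 against -5.11, -5.03, -3.96 and -3.85 (3.54 ± 0.45). Cd80, a costimulatory ligand of antigen-presenting cells, stood at -2.14, -2.85, -1.89 and -1.85 against -6.38, -5.19, -5.08 and -5.86 (3.45 ± 0.47). The sulphate transporter gene Slc26a2 stood at -2.14, -2.73, -1.68 and -1.80 against -5.64, -5.31, -4.82 and -4.86 (3.07 ± 0.22). The homeobox gene Nkx2-3 was higher by 2.77 ± 0.32, from -5.96, -5.51, -4.74 and -5.82 in IRI to -2.76, -3.20, -2.61 and -2.40 in Neiguan, and the apolipoprotein L gene Apol7b by 2.62 ± 0.25, from -1.19, -1.96, -1.78 and -0.94 to 1.11, 0.69, 1.33 and 1.50. A second Apol7b probe differed by only -0.06 between Neiguan and IRI. The adjusted p of these 8 genes lay between 4.09e-11 and 8.39e-05.

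The same genes were also high in the other acupoint groups and low in sham. Of the 12, Opalin, Dact2, Cd80, Slc26a2 and Nkx2-3 were called higher in Neiguan than in Quchi and Svs3a than in Yanglingquan, by 0.997 to 1.64, and IRI itself exceeded sham in Krt80 and Defb43, by 1.24 and 1.01 (adjusted p = 0.00608 and 0.0105). Krt80 averaged -6.06 in sham and 1.52, 1.38 and 0.95 in Jiaji, Yanglingquan and Quchi, and Pinx1 averaged -0.99 in sham and 3.46, 3.33 and 3.88. Of the 12 genes above, 11 had all 16 acupoint arrays above all 8 sham and IRI arrays, the exception being Svs3a. Such a complete separation held for 36 of the 569 genes called higher and 3 of the 158 called lower, against 42 of all 12894 genes (0.326%). Among the 52 genes called higher by at least 2 on the log2 scale, 22 were separated in this way. Called genes were chosen for a difference between the Neiguan and IRI arrays, and the 12 also for no overlap. The choice of genes therefore fixed part of this separation in advance. The acupoint arrays were scanned 2 to 6 days after the sham and IRI arrays, and pretreatment and scan day cannot be told apart in this pattern.

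**Figure D2:**
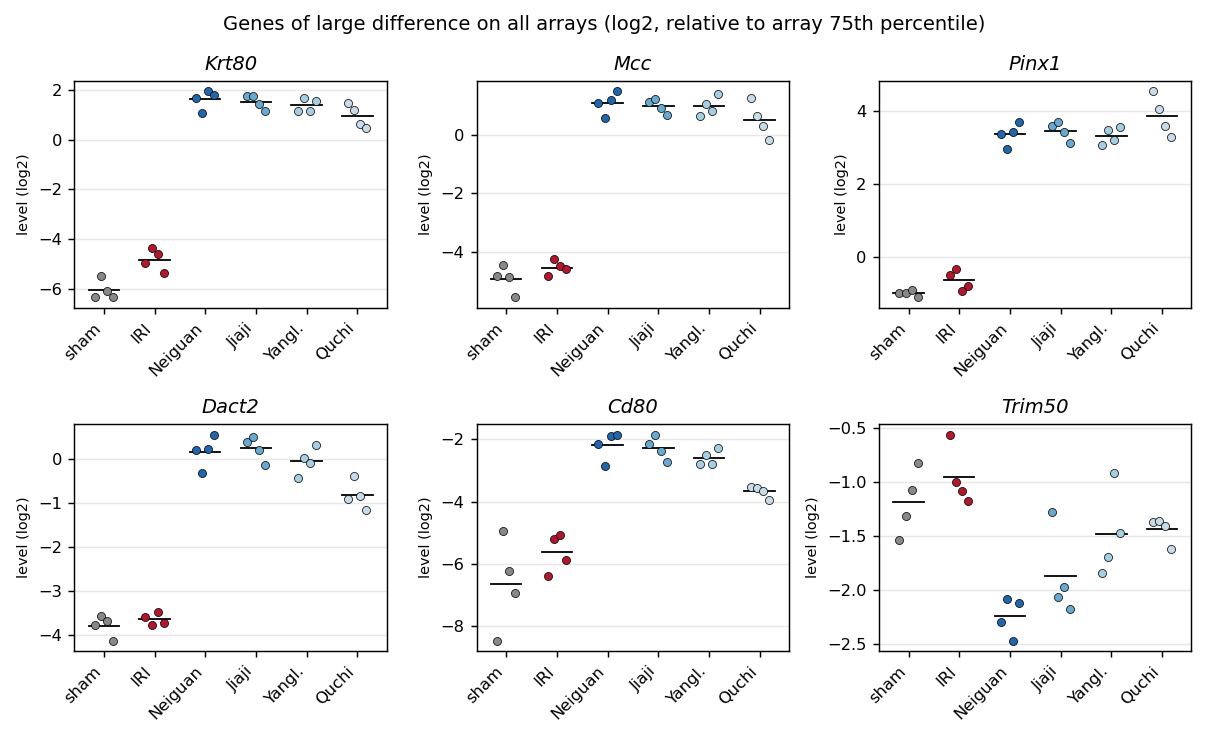
Level of 6 genes on each of the 24 arrays (log2 relative to the array's 75th percentile, vertical axis) by group, with 4 points per group and a bar at their mean. Krt80, Mcc, Pinx1, Dact2 and Cd80 are low on all sham and IRI arrays and high on all acupoint arrays, and Trim50 is lowest in Neiguan, where its mean difference from IRI is -1.29.

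Decreases were smaller. The largest among well measured genes was that of the clock gene Bmal1, described with the other clock genes. Trim50, an E3 ubiquitin ligase gene, stood at -2.30, -2.08, -2.47 and -2.12 in Neiguan and -0.56, -0.997, -1.08 and -1.17 in IRI, and fell by 1.29 ± 0.21 (adjusted p = 0.000415). Ntrk2, which encodes the BDNF receptor TrkB, stood at 0.06, -0.39, -0.03 and -0.05 against 0.97, 1.01, 1.07 and 1.28, and fell by 1.19 ± 0.20 (adjusted p = 0.000824). Ripply3, a transcriptional corepressor gene, stood at -5.06, -4.51, -4.90 and -5.11 against -4.10, -3.83, -4.04 and -3.67, and fell by 0.98 ± 0.19 (adjusted p = 0.00221). The calls of Trim50, Ntrk2 and Ripply3 held in every alternative run.

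The other large decreases rested more on single arrays. Mogat2, an acyltransferase gene of fat synthesis, stood at -3.81, -3.29, -2.88 and -2.96 in Neiguan and -1.99, -2.17, -2.45 and -1.09 in IRI (-1.31 ± 0.32). Ptprv, a receptor-type tyrosine phosphatase gene, stood at -0.06, -0.60, 0.32 and -1.86 against 1.22, 0.98, 0.48 and 0.35 (-1.31 ± 0.37), with a sham mean of -1.39, below both. The melanocortin receptor gene Mc5r stood at -3.66, -4.46, -4.01 and -4.55 against -3.26, -3.10, -3.42 and -3.17 (-0.93 ± 0.23). As for all 24 genes of largest change, the arrays of the groups did not overlap because the choice of genes required it. Il13ra2, which encodes a decoy receptor for interleukin 13, stood at -5.33, -4.86, -5.32 and -5.40 against -4.75, -2.74, -4.24 and -4.73 (-1.11 ± 0.31). The lens membrane protein gene Lim2 stood at -1.76, -1.96, -2.12 and -1.35 against -1.04, -0.97, -0.97 and -0.28 (-0.98 ± 0.25). Fibin, a secreted protein gene of the embryo, stood at -3.95, -4.00, -3.50 and -3.49 against -3.14, -2.10, -2.60 and -3.28 (-0.95 ± 0.24). IRI replicate 2 was the highest array for Il13ra2 and Fibin. The adjusted p of these 6 genes lay between 0.0164 and 0.0432. With only the 8 arrays in the fit Ptprv, Il13ra2 and Fibin were not called, and neither was Ptprv in 3 other settings nor Fibin with the mean over its probes. The calls ended without Neiguan replicate 1 (Mogat2, Ptprv, Il13ra2, Lim2, Fibin), 2 (Ptprv, Fibin, Mc5r), 3 (Il13ra2, Lim2) or 4 (Ptprv, Il13ra2, Mc5r) and without IRI replicate 1 or 3 (Ptprv), 2 (all but Mogat2) or 4 (Mogat2, Lim2), with adjusted p of 0.051 to 0.184.

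Some genes were below background on all arrays of 1 group, so that only a bound can be given. They were tested because the filter asked for detection in any 1 group of the series. The adjusted p of genes given as bounds, here and below, thus rests partly on signals below background. Cyp4a2, a fatty acid omega-hydroxylase gene, was at least 9.30-fold higher in Neiguan (adjusted p = 3.02e-07), where it stood at -3.44, -3.46, -2.998 and -3.47, well above background on all 4 arrays. It also averaged -2.68, -3.14 and -3.86 in Jiaji, Yanglingquan and Quchi, and -8.65 in sham. The zinc finger gene Zfp385b was at least 3.51-fold higher and the olfactory receptor genes Or52e15b and Olr623 at least 3.89-fold and 3.26-fold higher (adjusted p = 7.90e-05, 3.66e-08 and 0.00742). With normexp these last 3 were not called (adjusted p = 0.335, 0.113 and 0.318). Lower bounds on decreases were small, at least 1.69-fold for the translation factor gene Ctif, 1.67-fold for the potassium channel subunit gene Kcne3, 1.65-fold for Trim66 and 1.49-fold for the neurofilament gene Nefh (adjusted p = 0.0266, 0.0183, 0.0161 and 0.047). The calls of these 4 ended without any of 3 to 8 single arrays each (adjusted p of 0.051 to 0.139).

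Single genes of the inflammatory reaction were higher in Neiguan than in IRI, and none on the feedback and cytokine lists was called lower. Of 22 genes of inflammatory feedback and effectors, 4 were called higher (18.2%, against 4.41% of all genes) and 0 lower, and the median difference was 0.26 against -0.05 over all genes. The lists and their members were chosen with earlier results of these data known. Shares called, here and in the lists below, therefore describe the lists and test nothing. Nos2, the inducible nitric oxide synthase, stood at -0.56, -1.42, -0.81 and -1.08 in Neiguan and -2.14, -2.15, -2.26 and -1.79 in IRI, and rose by 1.12 ± 0.18 (adjusted p = 0.000415). Its mean in sham was -2.91, so that Neiguan lay farther from sham than IRI did. Socs3, a feedback inhibitor of cytokine receptors, stood at -1.97, -2.23, -2.23 and -2.11 against -2.80, -3.24, -2.88 and -2.51, and rose by 0.72 ± 0.16 (adjusted p = 0.00877). Ptges, the inducible prostaglandin E synthase, stood at -2.34, -2.50, -2.16 and -2.32 against -3.19, -2.75, -3.12 and -3.005, and rose by 0.69 ± 0.13 (adjusted p = 0.00154). In all 3 genes the groups did not overlap, and the calls held in every alternative run. Nfkb2, which encodes the p100 subunit of NF-kB, stood at -0.32, -0.47, -0.48 and -0.30 against -0.87, -1.41, -0.92 and -0.77, and rose by 0.60 ± 0.14 (adjusted p = 0.0123). Its call ended without Neiguan replicate 4, without IRI replicate 2 and with only the 8 arrays in the fit (adjusted p = 0.0532 to 0.0677).

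Of 23 cytokine and chemokine genes 1 was called higher (4.35%, near the 4.41% of all genes) and 0 lower, with a median of 0.28, and of 13 leukocyte adhesion and 25 complement and coagulation genes 0 were called. This was Il10, an anti-inflammatory cytokine, at -3.02, -2.72, -2.96 and -2.97 in Neiguan and -3.24, -3.79, -4.18 and -3.41 in IRI, a rise of 0.74 ± 0.19 (adjusted p = 0.0256). The Il10 call ended without Neiguan replicate 2 or 4 or IRI replicate 2 or 3, with normexp and with only the 8 arrays (adjusted p = 0.0614 to 0.121). Il33, an alarmin of stromal cells, differed by 1.41 ± 0.52 without passing (adjusted p = 0.126), although all 4 Neiguan arrays, at 3.12 to 3.60, lay above the IRI arrays, at 1.03 to 2.78. Il1rn, the interleukin 1 receptor antagonist, stood at 1.07 ± 0.45 (adjusted p = 0.185), with overlapping groups.

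No interferon response gene was called. Of 26 tested 23 differed by more than 0, and the median was 0.59, against -0.05 over all genes. The chemokine gene Cxcl10 stood at 4.55, 2.93, 3.88 and 2.82 in Neiguan and 3.34, 1.83, 1.90 and 0.71 in IRI (1.60 ± 0.64, adjusted p = 0.166), and the groups overlapped. The GTPase gene Ifi47 differed by 1.22 ± 0.40 (adjusted p = 0.085). The mean level of the list was 1.68 ± 0.50 (SD, n = 4) in Neiguan and 1.11 ± 0.56 in IRI, with overlapping arrays, and it ranged from 0.88 to 1.82 in sham. Of 15 genes of antigen presentation 1 was called higher (6.67%, against 4.41% of all genes) and 0 lower, with a median of 0.35. B2m, the light chain of class I molecules, stood at 6.49, 6.79, 7.02 and 6.76 against 6.38, 6.23, 6.25 and 5.99, and rose by 0.55 ± 0.14 (adjusted p = 0.0193). It was not called with quantile normalization, median scaling, the authors' values or only the 8 arrays, nor without Neiguan replicate 2, 3 or 4 or IRI replicate 4 (adjusted p = 0.0506 to 0.136).

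Promoters are shown only for called genes of these lists in which a motif of an inflammatory factor was found. RefSeq promoters were matched for 8 of the 10 called genes of the inflammatory, clock and antigen presentation lists, on build GRCr8, and the 250 bases before each start were searched on both strands. Nos2 and Il10 had no promoter in the source used and were not searched. Capitals mark the NF-kB site in Nfkb2 (chr1:255108124-255108373, plus strand) and Socs3 (chr10:103694769-103695018, minus strand), and in B2m (chr3:129549080-129549329, plus strand) first an interferon-stimulated response element and then an NF-kB site. Of 27457 such promoters 3.52% held the NF-kB site and 3.29% the interferon element, and of those of 10547 tested genes 4% and 2.95%. The matches are descriptions of sequence only. Ptges held neither.
Nfkb2: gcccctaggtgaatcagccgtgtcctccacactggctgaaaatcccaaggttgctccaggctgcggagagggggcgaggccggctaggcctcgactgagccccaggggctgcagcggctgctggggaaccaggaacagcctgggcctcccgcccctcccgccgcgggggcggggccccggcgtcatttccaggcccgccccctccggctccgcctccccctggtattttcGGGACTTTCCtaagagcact
Socs3: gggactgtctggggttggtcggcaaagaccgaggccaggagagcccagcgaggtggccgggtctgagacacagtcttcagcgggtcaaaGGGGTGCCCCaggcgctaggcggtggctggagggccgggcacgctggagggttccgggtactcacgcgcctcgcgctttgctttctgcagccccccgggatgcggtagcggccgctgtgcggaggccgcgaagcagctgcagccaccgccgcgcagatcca
B2m: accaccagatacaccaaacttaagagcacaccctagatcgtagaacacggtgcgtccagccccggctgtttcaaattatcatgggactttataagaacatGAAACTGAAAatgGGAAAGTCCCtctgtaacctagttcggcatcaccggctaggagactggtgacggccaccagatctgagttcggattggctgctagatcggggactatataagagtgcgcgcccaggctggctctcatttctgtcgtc

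Leukocyte markers held few calls. Of 17 monocyte and macrophage markers 1 was called higher (5.88%, near the 4.41% of all genes) and 0 lower, with a median of 0.13. Csf1r, the receptor for the macrophage growth factor CSF1, rose by 0.78 ± 0.10 (adjusted p = 7.47e-05). Its arrays lay between -1.88 and -1.47 in IRI and between -0.96 and -0.82 in Neiguan, while a second probe differed by only 0.11. The lysosomal macrophage marker Cd68 stood at 0.65 ± 0.29 (adjusted p = 0.218). The mean level of the macrophage markers ranged from -1.12 to -0.67 in Neiguan and -1.57 to -0.70 in IRI, and that of 11 neutrophil markers, of which 0 were called, from -3.42 to -2.50 and from -3.20 to -2.49. Of 20 lymphocyte markers 1 was called higher (5%, against 4.41%) and 0 lower, the T cell coreceptor gene Cd8b (0.80 ± 0.17, adjusted p = 0.00701), in a list whose median was -0.18. The part of these cells in the inflammatory genes above was not tested, and in bulk tissue fewer cells of a type and less RNA per cell cannot be told apart.

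Of 11 mast cell markers 10 differed by less than 0 and 1 was called lower, with a median of -0.31, against 1.23% called lower and a median of -0.05 over all genes. Their mean level overlapped between the groups, at -3.36 to -2.53 in Neiguan and -2.90 to -2.49 in IRI. Mcpt1, a mast cell protease, stood at -5.14, -3.99, -5.20 and -5.21 in Neiguan and -2.85, -3.77, -3.71 and -3.99 in IRI, and fell by 1.30 ± 0.34 (adjusted p = 0.0271). Neiguan replicate 2 was at the level of IRI replicate 4, just below it. Cma1 and Ms4a2, a chymase and the beta chain of the IgE receptor, stood at -0.70 ± 0.36 and -0.86 ± 0.37 without passing (adjusted p = 0.294 and 0.198). The Mcpt1 call ended without Neiguan replicate 1, 3 or 4, without IRI replicate 1, 2 or 3 and with only the 8 arrays (adjusted p = 0.0609 to 0.109).

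In the circadian clock, the activator genes Bmal1 and Npas2 were called lower and Per3 was called higher in Neiguan. Of 19 clock genes 1 was called higher and 3 lower, against 4.41% higher and 1.23% lower over all genes. The median of the list was 0.12, with 14 members above 0 and 5 below. Bmal1, the core activator, stood at -1.29, -1.14, -0.98 and -1.29 in Neiguan and 0.25, 0.85, 0.68 and -0.47 in IRI, and fell by 1.50 ± 0.37 (adjusted p = 0.0183). Its second probe differed by -1.42 between Neiguan and IRI. All Neiguan arrays were below all IRI arrays, and the spread was wider in IRI. The mean in sham was -0.29, and Jiaji, Yanglingquan and Quchi averaged -0.53, -0.82 and -0.44. Npas2, which can take the place of CLOCK beside BMAL1, stood at -3.13, -2.88, -2.93 and -3.12 against -2.02, -1.99, -1.68 and -1.94. It fell by 1.11 ± 0.27 (adjusted p = 0.0139), while a second Npas2 probe differed the other way, by 0.48. Csnk1e, a kinase that acts on PER proteins, stood at 1.27, 0.10, 0.69 and 0.61 against 1.20, 1.86 and 1.94, with IRI replicate 1 left out as an outlier spot. It fell by 1.003 ± 0.26 (adjusted p = 0.0279) with overlapping groups, and its other probes differed by 0.13 and -0.64.

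Per3, a gene that BMAL1 activates and whose protein acts back on the clock, stood at 1.06, 0.45, 0.52 and 0.53 in Neiguan and -0.37, -0.78, -0.69 and -0.25 in IRI, and rose by 1.16 ± 0.15 (adjusted p = 5.35e-05). The groups did not overlap, and the other Per3 probes differed by 0.20 and 0.40. Per1 and Per2 stood at 0.36 ± 0.14 and 0.48 ± 0.22 and were not called (adjusted p = 0.14 and 0.227). The sources used here do not state the time of day of sampling. The Bmal1 call ended without Neiguan replicate 4 or IRI replicate 1 or 2 (adjusted p = 0.0547 to 0.0722), and the Npas2 call without Neiguan replicate 4 (0.06). With the mean over a gene's probes Npas2, Per3 and Csnk1e were not called (adjusted p = 0.27, 0.0615 and 0.481), and Csnk1e was also not called without Neiguan replicate 2, 3 or 4 or IRI replicate 3 or 4 (adjusted p = 0.0609 to 0.131). Nor was it called with the percentile over spots (adjusted p = 0.0572) or with a stricter filter on dim probes.

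The promoters of the clock genes that moved most in each direction follow, Bmal1 (chr1:176766078-176766327, plus strand) and Per3 (chr5:166777801-166778050, minus strand), again the 250 bases before the start in RefSeq on GRCr8. Capitals in Bmal1 mark a REV-ERB and ROR element (TAGGTCA), which 2.26% of the 27457 promoters held. The E-box CACGTG, the related CACGTT and the D-box TTATGNAA (5.79%, 4.14% and 3.21% of promoters) and this element were not found in the windows of Per3, Npas2 and Csnk1e.
Bmal1: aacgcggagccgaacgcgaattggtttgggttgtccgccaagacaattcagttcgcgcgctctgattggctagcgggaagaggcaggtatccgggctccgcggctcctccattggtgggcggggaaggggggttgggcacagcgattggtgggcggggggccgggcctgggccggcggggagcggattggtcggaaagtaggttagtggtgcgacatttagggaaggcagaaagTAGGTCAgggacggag
Per3: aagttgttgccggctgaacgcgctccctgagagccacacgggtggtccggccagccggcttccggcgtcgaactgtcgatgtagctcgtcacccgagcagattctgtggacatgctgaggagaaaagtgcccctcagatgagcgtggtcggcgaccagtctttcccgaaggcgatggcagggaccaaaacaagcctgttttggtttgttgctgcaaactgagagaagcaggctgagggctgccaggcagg

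**Figure D3:**
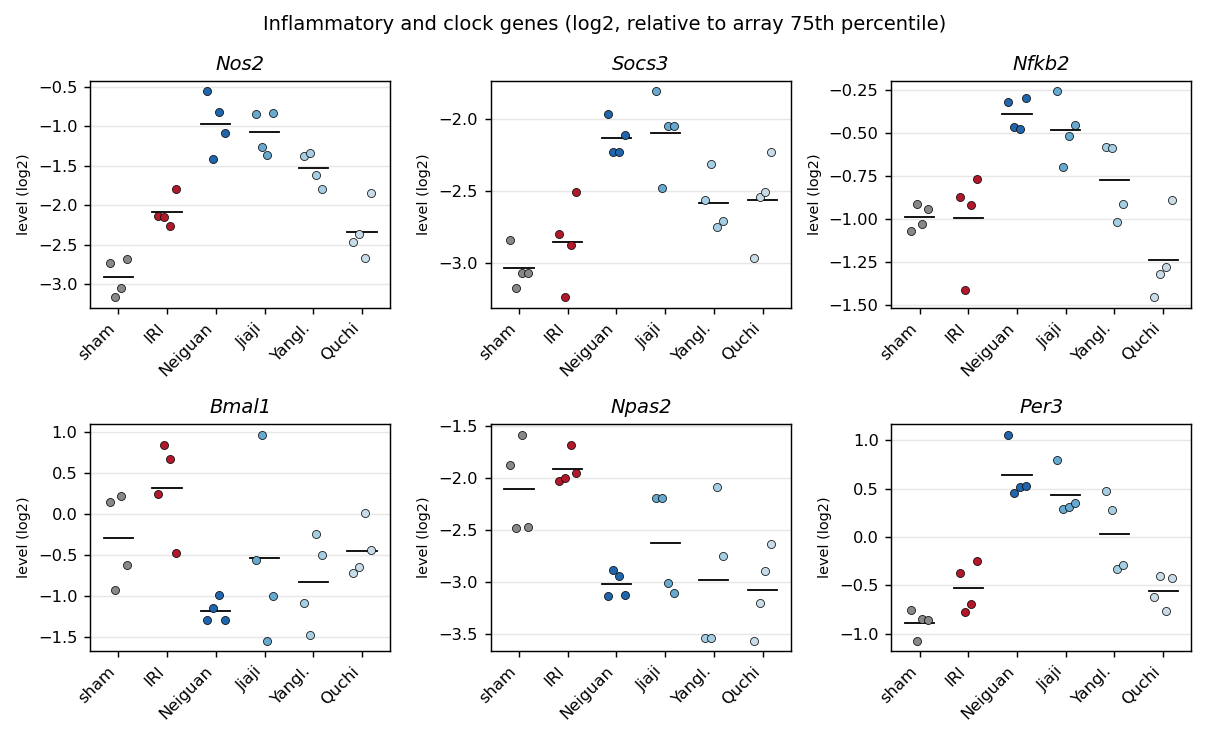
Level of 3 inflammatory and 3 clock genes on each of the 24 arrays (log2 relative to the array's 75th percentile, vertical axis) by group, with 4 points per group and a bar at their mean. Nos2, Socs3, Nfkb2 and Per3 are higher on every Neiguan array than on every IRI array, and Bmal1 and Npas2 lower on every one.

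An enzyme gene of noradrenaline synthesis and the gene of its transporter were higher in Neiguan. Of 26 adrenergic and cholinergic genes 4 were called higher (15.4%, against 4.41% of all genes) and 0 lower, with a median of 0.18 and 11 below 0. Th, tyrosine hydroxylase, the first enzyme of catecholamine synthesis, stood at 1.75, 1.22, 1.47 and 1.34 in Neiguan and 0.56, -0.36, -0.09 and 0.55 in IRI, and rose by 1.28 ± 0.17 (adjusted p = 5.52e-05). Slc6a2, the noradrenaline transporter, stood at -0.80, -0.90, -0.86 and -0.82 against -1.42, -1.69, -1.50 and -1.60. It rose by 0.71 ± 0.11 (adjusted p = 0.000356), and its second probe differed by 0.49. In both genes every Neiguan array was above every IRI array. The neuropeptide Y receptor gene Npy1r rose by 0.93 ± 0.23 and Pde4d, a cyclic AMP phosphodiesterase, by 0.74 ± 0.20 (adjusted p = 0.0167 and 0.0287). A second Pde4d probe differed by only 0.03. Chrm3 and Adra2b, a muscarinic and an alpha-2 adrenergic receptor, stood at 0.65 ± 0.21 and 0.41 ± 0.14 (adjusted p = 0.072 and 0.0929). Npy1r was not called without Neiguan replicate 4 or IRI replicate 2 (adjusted p = 0.059 and 0.0884). Pde4d was not called without Neiguan replicate 1, 3 or 4 or IRI replicate 1 or 2, with median scaling, with only the 8 arrays or with the mean over probes, nor Slc6a2 with the mean over probes (adjusted p = 0.0528 to 0.225).

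Of 13 neuron and Schwann cell markers 1 was called higher and 2 lower, against 4.41% and 1.23% of all genes, with 8 above 0 and a median of 0.16. Their mean level ranged from -3.20 to -2.94 in Neiguan and -3.24 to -2.71 in IRI. Sox10, a transcription factor of Schwann cells, rose by 0.85 ± 0.25 (adjusted p = 0.047), with overlapping groups and a call that ended without Neiguan replicate 1, 3 or 4, without IRI replicate 1, 2 or 3 and under 4 other settings (adjusted p = 0.0504 to 0.206). Nefh, given above as a bound, was among those lower. Of 33 neurotrophin and growth factor genes 0 were called higher and 1 lower, Ntrk2, with a median of -0.13, against 1.23% lower over all genes. Bdnf, the ligand of TrkB, stood at -0.87 ± 0.30 without passing (adjusted p = 0.108), although its Neiguan arrays, at -3.95 to -3.56, lay below its IRI arrays, at -3.25 to -2.27.

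Of 18 opioid and adenosine genes 0 were called higher and 1 lower, with 14 below 0, against 4.41% and 1.23% of all genes. This was P2rx7, an ATP-gated channel of immune cells, at least 1.33-fold lower (adjusted p = 0.00907, and 0.0503 without Neiguan replicate 1).

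**Figure D4:**
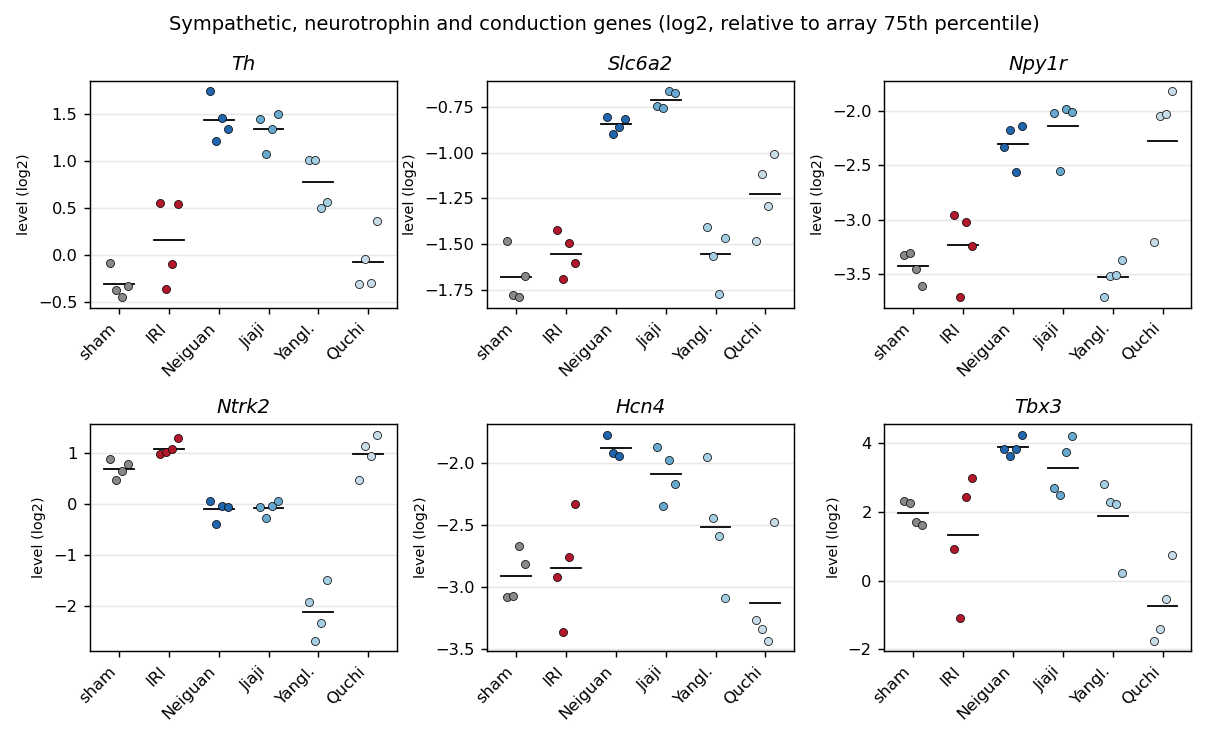
Level of 6 genes of sympathetic, neurotrophin and conduction lists on each of the 24 arrays (log2 relative to the array's 75th percentile, vertical axis) by group, with 4 points per group, fewer where an outlier spot was left out, and a bar at their mean. Th, Slc6a2, Npy1r, Hcn4 and Tbx3 are higher on every Neiguan array than on every IRI array and Ntrk2 is lower on every one.

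Atrial and conduction markers included 3 called higher of 13 tested (23.1%, against 4.41% of all genes), with 0 lower, 6 of the 13 below 0 and a median of 0.05. Tbx3, a transcription factor of the conduction system, stood at 3.82, 3.63, 3.84 and 4.25 in Neiguan and 0.93, -1.09, 2.45 and 2.97 in IRI, and rose by 2.57 ± 0.70 (adjusted p = 0.0321). Hcn4, the pacemaker channel, stood at -1.77, -1.92 and -1.95 on Neiguan replicates 2 to 4, with replicate 1 left out as an outlier spot, and at -2.92, -3.36, -2.76 and -2.33 in IRI. It rose by 0.98 ± 0.26 (adjusted p = 0.0279). Clic6, an intracellular chloride channel gene, rose by 3.17 ± 0.83 (adjusted p = 0.0267), from between -8.66 and -3.35 to between -2.53 and -1.74. It was well above background on 3 of the 4 IRI arrays, which limits the size of the fold, and its sham mean of -1.94 was at the Neiguan level. Most of the spread in Tbx3 and Clic6 was within IRI, where replicate 2 was lowest in both. The mean level of the list ranged from -0.56 to -0.40 in Neiguan and from -1.59 to -0.56 in IRI. Each of the 3 calls ended without any of 5 or 6 single arrays, namely Neiguan replicates 2 and 4 and IRI replicates 1 and 2 for all 3, with Neiguan replicate 1 for Tbx3 and Clic6 and Neiguan replicate 3 for Tbx3 and Hcn4 (adjusted p = 0.0525 to 0.156). With only the 8 arrays in the fit, Tbx3 and Clic6 were not called (adjusted p = 0.0978 and 0.111).

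Of 20 contractile genes of heart muscle 2 were called higher (10%, against 4.41% of all genes) and 0 lower, with a median of 0.11. Myl3 and Tnni3, a ventricular myosin light chain and cardiac troponin I, rose by 0.47 ± 0.13 and 0.43 ± 0.12 (adjusted p = 0.0295 and 0.034). Neither was called with quantile normalization, median scaling or the authors' values, nor without Neiguan replicate 1, 3 or 4 or IRI replicate 1, 3 or 4 (adjusted p = 0.0561 to 0.296). The myosin heavy chains Myh6 and Myh7 stood at 0.34 ± 0.15 and 0.17 ± 0.14, and the calcium pump gene Atp2a2 at 0.49 ± 0.15 (adjusted p = 0.218, 0.516 and 0.059). The natriuretic peptide genes Nppa and Nppb, markers of wall stress, stood at -0.23 ± 0.63 and 0.04 ± 0.24 (adjusted p = 0.874 and 0.941). No call was made among the 17 fetal and wall stress genes. Spp1, osteopontin, spread from -2.39 to 3.53 within Neiguan and did not pass (3.38 ± 1.08, adjusted p = 0.0732).

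Single genes of vessels and connective tissue were called lower, against 1.23% of all genes. Of 18 endothelial markers 15 were below 0, with a median of -0.18, and 1 was called lower, the peptide ligand gene Apln, which fell by 0.70 ± 0.17 (adjusted p = 0.0183). Of 24 fibroblast and matrix genes 18 were below 0, with a median of -0.23, and 1 was called lower. This was Fap, a protease of activated fibroblasts, at -2.93, -1.96, -2.62 and -2.36 in Neiguan and -1.90, -1.59, -1.32 and -1.47 in IRI, a fall of 0.90 ± 0.20 (adjusted p = 0.00708). Of 15 smooth muscle and pericyte markers, with 9 below 0 and a median of -0.18, 1 was called lower, the actin-binding Lmod1 (-0.87 ± 0.20, adjusted p = 0.00982). Of 17 matrix proteases and inhibitors 1 was, the collagenase gene Mmp13 (-0.61 ± 0.18, adjusted p = 0.0472), in a list whose median of -0.06 was near the -0.05 of all genes. None of these 4 lists had a gene called higher. Of 27 cell cycle genes 25 were below 0 and 0 were called, with a median of -0.35, and their mean level overlapped, at -2.41 to -1.23 in Neiguan and -1.84 to -0.89 in IRI. Cdc20 and Ccnd2, an activator of the anaphase complex and cyclin D2, stood at -0.50 ± 0.16 and -0.48 ± 0.17 (adjusted p = 0.0663 and 0.113). The Fap call held in every alternative run. The others ended, Lmod1 without IRI replicate 2 (0.0507), Apln without Neiguan replicate 1 or 3 or IRI replicate 3 and without the sex term (0.0523 to 0.0773), and Mmp13 without Neiguan replicate 1, 3 or 4 or IRI replicate 1, 2 or 3 and under 3 other settings (0.0553 to 0.29).

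Some transcripts made mainly in liver were higher in Neiguan, mostly at low levels. Of 13 tested 5 were called higher (38.5%, against 4.41% of all genes) and 0 lower, with a median of 0.86 and 12 above 0. Cyp2c11, a liver cytochrome P450 of male rats, stood at -2.63, -3.38, -2.92 and -2.85 in Neiguan and -4.05, -4.40, -3.85 and -4.61 in IRI, and rose by 1.28 ± 0.19 (adjusted p = 0.00028). Hpx, the haem carrier hemopexin, stood at -0.93, -2.18, -1.78 and -1.83 against -2.53, -2.65, -3.18 and -2.60, and rose by 1.06 ± 0.22 (adjusted p = 0.00413). For the fibrinogen chain gene Fgb and the lipoprotein gene Apob the bound came to 3.17-fold and 1.51-fold higher (adjusted p = 0.00642 and 0.0419). They were well above background on only 3 and 1 of the Neiguan arrays. Signals below background thus entered the Neiguan means, and neither value is a firm bound. Neiguan replicate 1 decided both values. Without it that of Fgb was 1.49-fold, and Apob was well above background on no array of either group and has no fold. Alb, albumin, a member of the list that the naming rule did not pick and that was named after its values were seen, stood at 1.47, -4.69, -3.07 and -4.02 against -4.48, -7.60, -6.26 and -8.27, and rose by 4.07 ± 1.17 (adjusted p = 0.0436) with overlapping groups. It was well above background on 1 of the 4 IRI arrays, so the size of its fold is not well measured. Neiguan replicate 1 was the highest of the 8 arrays for all 5 called genes, and the mean level of the list ranged from -3.05 to -2.02 in Neiguan, -4.04 to -3.53 in IRI, -3.14 to -3.01 in Jiaji, -4.13 to -3.42 in Yanglingquan, -3.31 to -2.53 in Quchi and -4.17 to -3.33 in sham. The calls of Alb and Apob ended without Neiguan replicate 1, among other arrays and settings (adjusted p = 0.19 and 0.182), and with normexp Apob turned to -0.18 and neither Fgb nor Apob was called (adjusted p = 0.348 and 0.375).

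Among genes of cell death, oxidases and nuclear receptors, single members were called. Of 35 genes of cell death 2 were called higher (5.71%, against 4.41% of all genes) and 0 lower, with a median of 0.01. Bid, which links death receptors to mitochondria, stood at -1.46, -1.90, -2.27 and -1.65 in Neiguan and -2.88, -3.62, -3.20 and -3.19 in IRI, and rose by 1.40 ± 0.31 (adjusted p = 0.00666) to near its sham mean of -1.89. Of 19 oxidase and nitric oxide synthase genes 2 were called higher (10.5%), Nos2 and Noxa1, an activator of NADPH oxidase 1, which rose by 0.97 ± 0.13 (adjusted p = 5.53e-05) from between -3.07 and -2.66 to between -2.01 and -1.67. Of 13 adipocyte markers 1 was called higher (7.69%), the fatty acid desaturase gene Scd (1.36 ± 0.27, adjusted p = 0.0028). The oestrogen receptor gene Esr2 was called higher of 23 nuclear receptors (4.35%, near the share of all genes), by 2.23 ± 0.33 (adjusted p = 0.000245). Its other probes differed by -0.07 and -0.41, and it was not called with the mean over a gene's probes or with normexp (adjusted p = 0.351 and 0.158).

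Energy metabolism and stress lists held no called gene. This applied to 38 genes of oxidative phosphorylation, 30 of fatty acid oxidation, 26 of the tricarboxylic acid cycle, 34 of glycolysis and hypoxia, 25 heat shock genes, 23 of endoplasmic reticulum stress and 27 immediate early genes, with medians between -0.04 and 0.17. The uncoupling protein gene Ucp3 stood at -1.21 ± 0.49 and the very long-chain acyl-CoA dehydrogenase gene Acadvl at -0.36 ± 0.13 (adjusted p = 0.17 and 0.122).

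**Figure D5:**
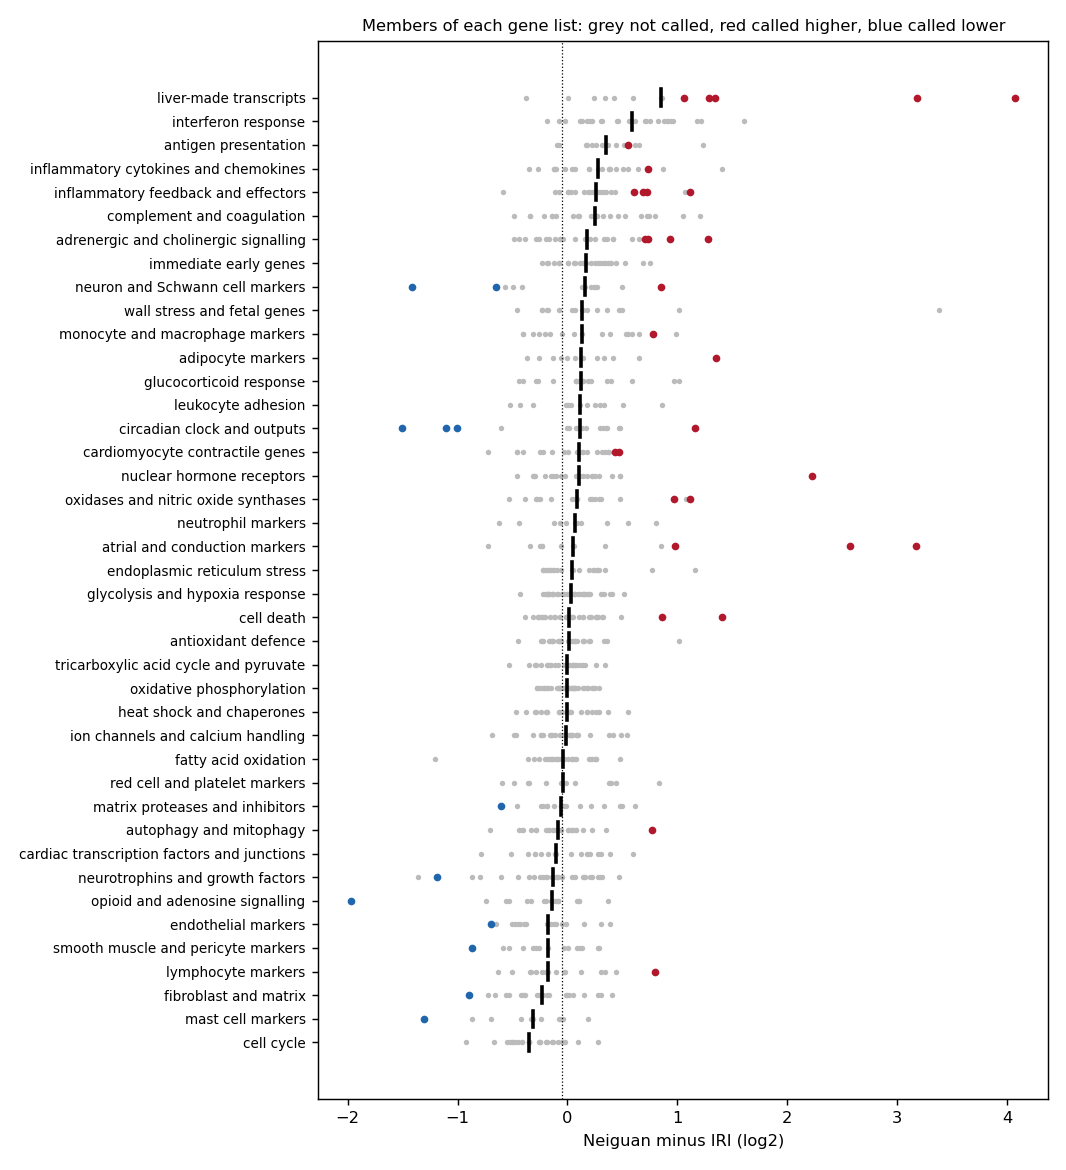
Difference between Neiguan and IRI (log2, horizontal axis) of each tested member of the gene lists shown, 1 row per list in order of its median (black bar), with red and blue points for genes called higher and lower and a dotted line at the median of all genes, -0.05. Liver-made transcripts stand highest with a median of 0.86 and cell cycle genes lowest with -0.35, and most points of every list are grey.

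Genes with symbols of olfactory, vomeronasal, trace amine or taste receptors took a share of the calls. Of 576 such genes tested, recognised by their symbols after the values were seen, 81 were called higher (14.1%, against 4.41% of all genes) and 3 lower, and 421 were well above background on all 8 arrays. Their median level was -4.27 in Neiguan and -4.51 in IRI. Across all genes, the 3224 dimmest held 164 of the genes called higher, and the next 3 sets of like size, in order of brightness, held 235, 128 and 42.

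Neiguan was then set against the mean of the other 3 acupoint groups, which had the same injury. Their arrays were scanned on the same day as the Neiguan arrays, except Quchi replicate 1, which was scanned later. The Neiguan arrays lay in a scan of their own, so scan and group cannot be told apart here either. Of 12894 genes 365 were called (2.83%), 234 higher (1.81%) and 131 lower (1.02%). With median scaling 181 were called, with the percentile taken over spots 242 and with normexp 688. Of the genes called against IRI, 150 of those higher and 27 of those lower were also called here in the same direction, in comparisons that share the 4 Neiguan arrays. Hrh3, the histamine H3 receptor of nerve endings, had means of 2.91 in Neiguan, 1.78 in IRI and 2.76, 2.07 and 1.24 in Jiaji, Yanglingquan and Quchi. It was higher in Neiguan than in IRI by 1.13 ± 0.12 (adjusted p = 4.83e-06) and than the other acupoint groups by 0.89 (adjusted p = 0.000188), with a second probe at -0.07 against IRI. Lypd2, a Ly6 family gene, was higher by 1.19 ± 0.12 and 0.86, Wnk4, a kinase of ion transport, by 1.06 ± 0.16 and 0.91, and Lrrc26, a potassium channel subunit, by 1.09 ± 0.18 and 1.05. The immune receptor gene Treml2 was higher by 0.75 ± 0.10 and 0.62, and C8h3orf62 by 1.001 ± 0.11 and 0.65. Of the genes described above, Nos2, Nfkb2, Per3, Th, Tbx3 and Hpx were called higher against the mean of the other 3 acupoint groups as well, by 0.44 to 2.40. Against Jiaji alone none of the 6 was called, with differences of 0.09 to 0.60 (adjusted p = 0.465 to 0.82).

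Lower against both was Spata6l, a spermatogenesis-associated gene, by -0.95 ± 0.15 and -0.81. Cyp26a1, which breaks down retinoic acid, stood at -0.89 ± 0.23 and -0.88, Veph1 at -0.46 ± 0.12 and -0.47, Klhl22, a ubiquitin ligase adaptor, at -0.41 ± 0.11 and -0.45, and Agtpbp1, a tubulin deglutamylase, at -0.30 ± 0.09 and -0.37. Of these 5, the Spata6l call against IRI held in every alternative run. The others ended without any of 3 to 8 single arrays, Agtpbp1 without any of the 8 (adjusted p = 0.0514 to 0.134). Agtpbp1 was also not called in 7 other settings and Cyp26a1 in 3, both with quantile normalization and the authors' values among them (adjusted p = 0.0513 to 0.126), Klhl22 in 2 and Veph1 with only the 8 arrays (0.0616 to 0.101).

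Neiguan did not separate evenly from the other groups. Against Jiaji alone 0 genes were called (0%) by limma, with 1499 at an unadjusted p below 0.05, against Yanglingquan 2659 (20.6%), against Quchi 1873 (14.5%) and against sham 2566 (19.9%), while IRI against sham gave 743 (5.76%). Pairs of Neiguan and Jiaji arrays correlated across genes at a median r of 0.987, Neiguan and IRI pairs at 0.9823 and Neiguan and sham pairs at 0.9761, as a description over genes, which are not independent.

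No gene was called for a different response in females and males. Of 12882 genes 0 passed (0%), with 413 at an unadjusted p below 0.05 in limma, and each sex had 2 arrays per group. The smallest p belonged to Gsta1, a glutathione transferase, which was lower in Neiguan females than IRI females by 1.06 and higher in Neiguan males than IRI males by 1.36, a difference between the sexes of -2.41 ± 0.43 (adjusted p = 0.43). Gsta3, of the same family, gave -0.92 in females and 1.19 in males (difference of -2.10 ± 0.39, adjusted p = 0.43).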

How the data were processed

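Total RNA of rat myocardium was labelled with Cy3 and hybridised to single-colour Agilent arrays, 24 in 6 groups of 4 rats. The deposited scanner files hold spot intensity, already background-subtracted by Feature Extraction, version 11.0.1.1 per the file headers and 10.7.3.1 per the submitters' processing notes. The deposited flags, other values of 0 or 1 per spot, mark spots well above background, saturated or outlying. The authors' table of log2 values had a median of 7.20 in every column and correlated with the processed signal at 0.997 or more on the Neiguan and IRI arrays. It served as an alternative.

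After 1377 control spots, 42877 spots remained per array. Over all arrays 8733 outlier spots were dropped and 0 were saturated. Spots were averaged to 30367 probes, log2 was taken, and each array's 75th percentile over probes was subtracted. Accessions matched to RefSeq (GRCr8) named 18005 probes (59.3%), giving 15168 genes, and 12362 probes stayed unnamed. A probe was kept where every array of some group measured it well above background, and the brightest kept probe stood for each gene, which left 25149 probes and 12894 genes. limma 3.58.1 in R 4.3.3 fitted group and sex on all 24 arrays (17 residual degrees of freedom), with Benjamini-Hochberg adjustment over all genes. Precision is limited by the number of arrays. The p-values measure the spread between rats within groups, estimated over all 24 arrays, and not the spread between scans.

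Of 996 genes on 43 lists, 870 were tested. Lists and members were chosen with earlier results of these data known. Named genes were the 12 higher and 12 lower of largest change that were well measured without overlap, the 4 and 4 of largest bound, up to 4 called and 2 uncalled genes per list, the 5 of smallest p by sex, the 6 higher and 6 lower also called against the other acupoints, and 11 genes set by name. A bound sets the brighter group's mean against the lowest signal well above background on the dimmer arrays. Same-numbered arrays of the 2 groups correlated in their deviations at -0.247, 0.0806, -0.0859 and 0.123, so the numbers were not taken as pairs. Alternatives were quantile and median scaling, normexp (median spot signal, offset 50), the authors' values, other filters, probe rules and models, and each array left out. The 75th percentile over spots, leaving out Quchi replicate 1, and the bounds with each array left out were added after seeing the data. A few genes chosen by these rules are not reported here.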

Additional observations from a re-analysis of the deposited data

Results flagged for a closer look

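Sets of 4 arrays were examined for the genes named and for the share of probes well above background. Of 204 such sets, 13 (6.37%) held 1 array far from the other 3 by Dixon's criterion, and chance alone flags about 1 in 20. On Neiguan replicate 1 these were Per3 at 1.06, Scd at -1.52 and Apob at -4.67, all high, and Kcne3 at -7.24, low. On Neiguan replicate 2 Mcpt1 at -3.99 and Il13ra2 at -4.86 were high and C8h3orf62 at 0.89 was low. On Neiguan replicate 3 Cyp4a2 at -2.998 was high and Cd8b at -1.63 low. In IRI, Il1rn stood out on replicate 1 at -0.18, Veph1 on replicate 2 at 1.67 and Lim2 on replicate 4 at -0.28, all high, and Noxa1 on replicate 2 at -3.07, low.

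For 21 named genes the level in Neiguan also differed from the mean of the other 3 acupoint groups, by limma with adjusted p between 0.000188 and 0.0466. The difference was 2.40 for Tbx3, 1.05 for Lrrc26, 0.91 for Wnk4, 0.89 for Hrh3, 0.86 for Lypd2, 0.83 for Hpx and 0.76 for Th. It was 0.68 for Nos2, 0.67 for Per3, 0.65 for C8h3orf62, 0.62 for Treml2 and 0.44 for Nfkb2. On the low side it was -1.41 for Ptprv, -0.95 for Il13ra2, -0.88 for Cyp26a1, -0.85 for Mc5r and -0.81 for Spata6l. It was -0.65 for Trim50, -0.47 for Veph1, -0.45 for Klhl22 and -0.37 for Agtpbp1. Against Jiaji alone none of the 21 was called, as 0 of all 12894 genes tested were.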

How the results depend on the processing

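Of 77 genes named and called against IRI, 35 kept their call in every one of up to 19 other settings run and 42 lost it in at least 1. The count of genes called against IRI, 727 by default, was 1257 with normexp and 1865 probes when every probe was tested, and 456 to 673 with 1 array left out. With the replicate block it was 736 (559 higher, 177 lower), which moved no count by over 1.5 times. The block ended the calls of Ptprv, Nefh, Apob and Agtpbp1 (adjusted p = 0.0619, 0.0517, 0.0681 and 0.0514) and made one of Cdc20 (0.0192). Against the other acupoint groups the count of 365 became 181 with median scaling, 688 with normexp, 242 with the percentile over spots, 286 without the sex term and 249 without Quchi replicate 1. The count by sex was 0 to 4 with 1 array left out, being 4 without Neiguan replicate 3 and 1 without Neiguan replicate 1 or 4 or IRI replicate 4. Apob reversed to -0.18 with normexp (adjusted p = 0.375). The causes were not tested. The difference in the share of probes above background was -5.94 to -3.36 points with 1 array left out. Scan as a random block was not run, since Neiguan and IRI each lay in 1 scan of their own. Dim genes are limited by signal over background.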
